A study of Homo sapiens with 3 samples.

Results

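The 10 genes described here carry the signal of transforming growth factor beta (TGF-beta) from the secreted ligand to the nucleus, and they were measured in MCF10A, a human mammary epithelial cell line that is immortalized but does not form tumours. They were chosen by name: the ligand genes TGFB1, TGFB2 and TGFB3, the receptor genes TGFBR1, TGFBR2 and TGFBR3, and the intracellular SMAD genes SMAD2, SMAD3, SMAD4 and SMAD7. All 10 were found by Ensembl identifier among the 62754 genes of the deposited table. RNA-seq was performed on 3 replicates (EV, replicates 1 to 3) of 1 condition, at 27 h after seeding, during exponential growth. The cells had been transduced with the empty vector of a retroviral, doxycycline-inducible expression system and selected with puromycin. The vector held no gene to express, no doxycycline was given and the cells are labelled as untreated. All replicates are labelled as batch 1. They also share the vector, the selection and a mammary epithelial growth medium with cholera toxin, and no group without these was measured. Whether the transduced cells were a pool or 1 clone is not given in the sources used here. The labels do not say that the replicates came from separate cultures, so the spread between them may be technical.

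TGF-beta is secreted as a latent complex, in which the mature ligand is held by its own propeptide and tethered to the matrix by latent TGF-beta binding proteins, and it acts only after release. The free ligand dimer binds the type II receptor TGFBR2, a serine/threonine kinase that is always active, which recruits and phosphorylates the type I receptor TGFBR1. TGFBR1 then phosphorylates SMAD2 and SMAD3, which bind SMAD4 and regulate transcription in the nucleus. In mammary epithelium the pathway is best known for growth arrest and for the epithelial-to-mesenchymal transition.

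The values are TPM (transcripts per 1000000), which corrects read numbers for gene length and gives every replicate the same total. With gene lengths of GENCODE release 44, the TPM values came back as whole reads for 100% of annotated genes in each replicate, with totals of 15273329, 15446347 and 11166546 reads in replicates 1, 2 and 3. Protein-coding genes held 91.5%, 89.8% and 79.6% of TPM in the 3 replicates, so replicate 3 was both shallower and lower in protein-coding share. Epithelial identity was checked with 8 markers of breast epithelial cells, and 8 of the 8 were at or above 1 TPM. Of all protein-coding genes 56.7% reached that cutoff. The markers ran from KRT5 at 6612 TPM down to EPCAM at 14.6 TPM. Their summed level was 15355, 14866 and 11926 TPM. Of 6 fibroblast markers 1 reached 1 TPM (COL1A1, at 4.96 TPM), with COL1A2, PDGFRA and LUM at 0 and summed levels from 4.82 to 5.91 TPM. Of 4 endothelial markers 1 did (PECAM1, at 1.77 TPM), with CDH5 at 0 and sums from 1.77 to 2.16 TPM, and of 4 leukocyte markers 1 did (CD14, at 1.96 TPM), with CD3E at 0 and sums from 1.15 to 2.96 TPM. In bulk RNA, fewer cells that express a gene and less RNA of it per cell cannot be told apart.

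Of the 10 genes, 9 had a mean of at least 1 TPM, the cutoff for an expressed gene used here, and the same 9 reached it in every replicate. Over all 62754 genes 15640 did (24.9%), and over protein-coding genes 11360 of 20046 did (56.7%). The exception was TGFB2, which reached the cutoff in 1 of 3 replicates. The levels spanned 213-fold, from TGFBR2 at 158 TPM to TGFB2 at 0.739 TPM. By summed TPM the receptors stood highest, at 219, 204 and 177 TPM in replicates 1, 2 and 3, followed by the ligands at 84.6, 87.6 and 60.6 TPM and the SMADs at 62.5, 65.4 and 53.9 TPM. The median of the 10 means, TGFB2 included, was 14.3 TPM. It lay below the median of 24.9 TPM over expressed protein-coding genes, which holds only genes that reached the cutoff. Most of these signalling genes were of moderate abundance, and 2 of them, TGFBR2 and TGFB1, stood well above the rest.

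**Figure D1:**
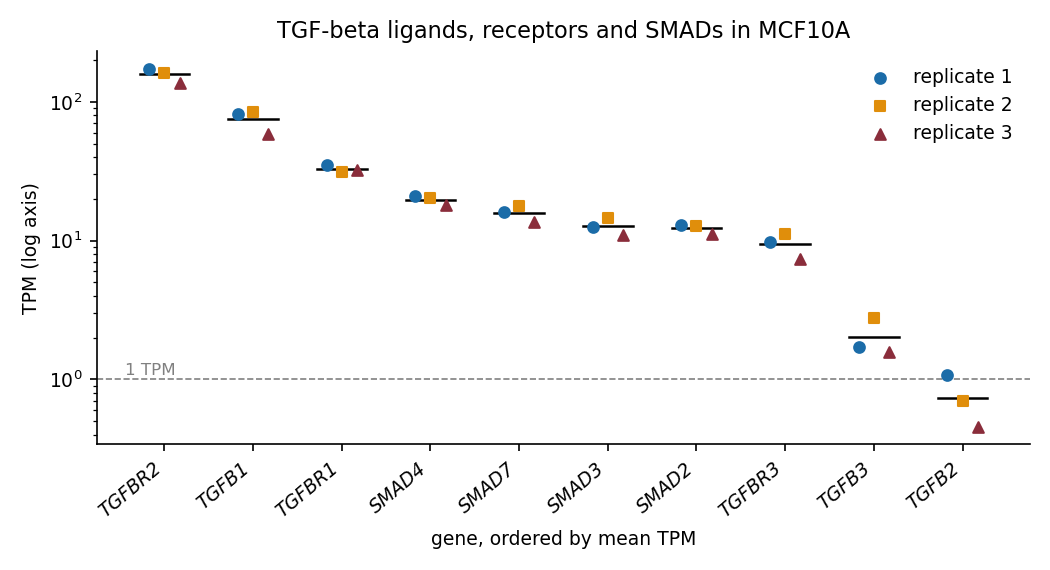
TPM of each gene on a log axis, with 1 symbol per replicate, a bar at the mean of 3 replicates and a dashed line at 1 TPM. TGFBR2 and TGFB1 lie highest, SMAD2, SMAD3, SMAD4 and SMAD7 lie between 11.1 and 20.9 TPM, and TGFB2 crosses the 1 TPM line in replicate 1 only.

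Among the ligands, almost all of the RNA was that of TGFB1. TGFB1 (ENSG00000105329, hg38 chr19:41301587-41353922, minus strand), the isoform that most epithelial and immune cells secrete, was measured at 81.8, 84.1 and 58.6 TPM, from 1196, 1264 and 729 reads. Its mean was 74.9 ± 14.1 TPM (SD, n = 3, as for all means here), which ranked it 2206 among the 20046 protein-coding genes, above 80.6% of the 11360 that were expressed. With its next longest transcript of 1250 bases in place of the longest of 2780, and likewise for every gene, it came to 116 ± 19.4 TPM. TGFB3 (ENSG00000119699, chr14:75958097-75983011, minus strand), an isoform known for its role in palate fusion, was low in every replicate, at 1.72, 2.75 and 1.56 TPM from 31, 51 and 24 reads. Its mean of 2.01 ± 0.645 TPM lay above that of 5.84% of expressed protein-coding genes. TGFB2 (ENSG00000092969, chr1:218345336-218444619, plus strand), the isoform that depends on a co-receptor for tight binding to TGFBR2, was measured at 1.07, 0.693 and 0.457 TPM from 33, 22 and 12 reads. The exact Poisson 95% intervals of these counts ran from 0.735 to 1.50, from 0.434 to 1.05 and from 0.236 to 0.798 TPM and cover counting error only, as do all intervals here. The cutoff of 1 TPM thus lay inside the interval of replicates 1 and 2 and above that of replicate 3.

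TGFB1 took 96.5 ± 0.358% of the summed ligand TPM, TGFB3 2.58 ± 0.555% and TGFB2 0.935 ± 0.284%. Within a library TGFB1 was 106-fold above TGFB2, a log2 difference of 6.73 ± 0.41, and its log2 difference from TGFB3 was 5.25 ± 0.32, both in 3 of 3 replicates. With the next longest transcript of each gene these differences were 7.67 and 6.39, that transcript being 1250 bases for TGFB1, 5053 for TGFB2 and 3395 for TGFB3. TGFB3 was 2.80-fold above TGFB2 (log2 difference of 1.48 ± 0.70), also in 3 of 3, although the interval of TGFB3 in replicate 1, from 1.17 to 2.44 TPM, overlapped that of TGFB2. All 3 differences were larger than their SD. With 3 replicates the exact sign-flip permutation test, two-sided, cannot give a p below 0.25, which is the value it gave for each of these 3 pairs.

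The ends of the 3 coding sequences are shown because the isoforms are related there, which bears on whether reads can be assigned to 1 of them. They are the last 60 coding bases with the stop codon, 5′ to 3′ on the strand of the gene, at chr19:41331052-41331111 for TGFB1, chr1:218441303-218441362 for TGFB2 and chr14:75959187-75959246 for TGFB3 of hg38, each inside the last exon, and they encode the end of the mature ligand. Capitals mark the 23 positions at which the 3 genes are not all the same, and the other 37 are shared.
TGFB1: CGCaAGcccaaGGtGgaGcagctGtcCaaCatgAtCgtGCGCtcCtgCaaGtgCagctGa
TGFB2: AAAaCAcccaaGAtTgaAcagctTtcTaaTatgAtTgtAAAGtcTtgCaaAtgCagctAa
TGFB3: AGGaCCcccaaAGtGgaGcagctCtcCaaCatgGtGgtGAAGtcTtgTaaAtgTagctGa

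Even so, the longest run of identical bases between the transcripts was 17 bases for TGFB1 and TGFB2, 16 for TGFB2 and TGFB3 and 14 for TGFB1 and TGFB3. Of the 50-base windows of the 10 canonical transcripts, 0 occurred in another of the 10. Reads of that length that match a canonical transcript exactly could thus be told apart between the ligands. Other annotated transcripts do overlap them. Of the canonical TGFB2 transcript, 23.4% is shared on the same strand with the non-coding gene TGFB2-OT1, to which 0 reads were assigned in every replicate. All of TGFB2-OT1 lies within exons of TGFB2, so that count does not show that it was silent. A further 11.9% of the TGFB2 transcript lies opposite TGFB2-AS1, with 2, 0 and 0 reads. With the shared bases left out of its length, TGFB2 came to 0.965 ± 0.403 TPM. Of the TGFB3 transcript 4.75% lies opposite TGFB3-AS1, with 1, 2 and 1 reads, and whether the reads were counted by strand is not given in the sources used here.

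The promoters of the 3 ligand genes also differ in base composition, and they are shown beside the 106-fold range of the levels as a description of the loci. The sequences are the 80 bases before each start in RefSeq (GRCh38.p14), whose promoter table held all 10 genes. They lie at chr19:41353923-41354002 on the minus strand for TGFB1, at chr1:218345256-218345335 on the plus strand for TGFB2, and on the minus strand at chr14:75983012-75983091 and chr14:75981996-75982075 for the upstream and the downstream start of TGFB3. Capitals mark TATAAA, the only motif searched, on both strands.
TGFB1: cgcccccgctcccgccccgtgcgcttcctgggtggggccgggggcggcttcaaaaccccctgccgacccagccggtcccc
TGFB2: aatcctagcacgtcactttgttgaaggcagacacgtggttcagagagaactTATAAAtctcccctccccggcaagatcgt
TGFB3, upstream start: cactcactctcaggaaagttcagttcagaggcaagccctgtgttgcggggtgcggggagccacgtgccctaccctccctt
TGFB3, downstream start: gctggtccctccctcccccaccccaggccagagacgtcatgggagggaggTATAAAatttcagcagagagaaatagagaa

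The window of TGFB1 was 80% G and C and held no TATAAA, and the window at the upstream start of TGFB3, at 61.3% G and C, held none either. TGFB2 had the motif 29 bases before its start at 48.8% G and C, and the downstream start of TGFB3 had it 30 bases before at 55% G and C. Over all 35116 RefSeq windows of this length, 4.35% held TATAAA on either strand, and the median G and C content was 61.3%. The TPM of a gene does not tell its starts apart, so nothing was measured on which TGFB3 start was in use.

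Among the receptors the type II receptor dominated. TGFBR2 (ENSG00000163513, chr3:30606601-30694142, plus strand) was measured at 174, 162 and 137 TPM, from 5295, 5075 and 3566 reads. Its mean of 158 ± 18.5 TPM ranked it 899 among protein-coding genes, above 92.1% of those expressed, and the highest of the 10 genes described. TGFBR1 (ENSG00000106799, chr9:99104038-99154192, plus strand), the type I receptor also known as ALK5, was measured at 35.3, 31.3 and 32.1 TPM from 1206, 1100 and 933 reads. It had a mean of 32.9 ± 2.11 TPM, above 58.7% of expressed protein-coding genes. By deposited TPM its SD of log2(TPM + 1), 0.088, was the smallest of the 10. That place depended on how the replicates were scaled, as given below. TGFBR3 (ENSG00000069702, chr1:91680343-91906335, minus strand) encodes betaglycan, a co-receptor without kinase activity that presents ligand, TGFB2 above all, to TGFBR2. It was measured at 9.73, 11.1 and 7.38 TPM from 330, 386 and 213 reads, with a mean of 9.39 ± 1.87 TPM.

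TGFBR2 held 78.8 ± 0.951% of the summed TPM of the 3 receptors, TGFBR1 16.5 ± 1.45% and TGFBR3 4.68 ± 0.655%. TGFBR2 exceeded TGFBR1 4.77-fold (log2 difference of TGFBR1 from TGFBR2 of -2.26 ± 0.14) and TGFBR3 16.9-fold (4.08 ± 0.19), and TGFBR1 exceeded TGFBR3 3.55-fold (1.83 ± 0.31). Each order held in 3 of 3 replicates and was larger than its SD, with the smallest p of 0.25 that the exact sign-flip permutation test allows. The gene lengths behind these values were 5794 bases for the longest TGFBR2 transcript and 4530 for its canonical one. With canonical lengths for all genes TGFBR2 came to 164 ± 17.4 TPM and TGFBR1 to 26.8 ± 1.63 TPM, and the order of the receptors was as before.

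The 4 SMADs lay close together, within 1.61-fold of each other by mean TPM. SMAD4 (ENSG00000141646, chr18:51028528-51085045, plus strand), the partner common to the TGF-beta and BMP branches, was highest at 20.9, 20.3 and 18.1 TPM from 985, 983 and 723 reads, a mean of 19.8 ± 1.51 TPM. SMAD7 (ENSG00000101665, chr18:48919853-48950965, minus strand), an inhibitor that blocks TGFBR1 and brings ubiquitin ligases to it, was measured at 16.1, 17.6 and 13.6 TPM from 284, 319 and 204 reads, a mean of 15.8 ± 2.03 TPM. Of the receptor-activated SMADs, SMAD3 (ENSG00000166949, chr15:67063763-67195173, plus strand) was measured at 12.5, 14.6 and 11.1 TPM from 426, 512 and 320 reads, a mean of 12.7 ± 1.80 TPM. The other, SMAD2 (ENSG00000175387, chr18:47808957-47931146, minus strand), was measured at 12.9, 12.8 and 11.2 TPM from 2350, 2402 and 1734 reads, a mean of 12.3 ± 0.967 TPM. These levels lay above those of 42.8% (SMAD4), 36.6% (SMAD7), 31.3% (SMAD3) and 30.5% (SMAD2) of expressed protein-coding genes. Of the canonical SMAD4 transcript, 9.28% is shared on the same strand with ENSG00000267699, a gene annotated as protein-coding to which 0 reads were assigned. Its canonical transcript lies wholly within exons of SMAD4 and ELAC1, so that count does not show that it was silent. With the shared bases left out of its length, SMAD4 came to 22.2 ± 1.70 TPM.

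SMAD2 and SMAD3 are close relatives, and the ends of their coding sequences are shown because they encode the serines that TGFBR1 phosphorylates. The 60 bases with the stop codon lie at chr18:47841827-47841886 on the minus strand and at chr15:67190477-67190536 on the plus strand of hg38, both inside the last exon. Capitals mark the 21 positions that differ, and 39 are the same.
SMAD2: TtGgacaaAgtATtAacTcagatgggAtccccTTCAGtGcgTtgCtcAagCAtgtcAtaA
SMAD3: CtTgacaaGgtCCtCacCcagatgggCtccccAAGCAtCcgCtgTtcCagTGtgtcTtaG

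The longest run of identical bases was 23 between the SMAD2 and SMAD3 transcripts, 29 between SMAD2 and SMAD4, 14 between SMAD3 and SMAD4 and 13 between SMAD3 and SMAD7. Of the 50-base windows of SMAD2, 1.16% occurred in genes other than these 10, and for SMAD3 and SMAD7 0 windows did.

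By TPM, SMAD2 and SMAD3 did not differ beyond their spread. The log2 difference of SMAD2 from SMAD3 was 0.041, -0.19 and 0.015 in the 3 replicates, with a mean of -0.046 ± 0.13 and a p of 1 in the exact sign-flip permutation test. By reads, SMAD2 had 5.20-fold more than SMAD3 and 2.41-fold more than SMAD4. What separates these readings is the gene length by which the reads were divided. The longest SMAD2 transcript, which is also its canonical one, is 34626 bases, of which 1404 (4.05%) are coding, and its next longest is 12075 bases, 2.87-fold shorter. The longest SMAD3 transcript is 6464 bases with 1278 coding (19.8%), and the next is 5993 bases. When the next longest transcript of every gene was used instead, an alternative chosen after seeing the data, SMAD2 came to 24.6 ± 1.34 TPM, SMAD3 to 9.59 ± 1.21, SMAD4 to 14.1 ± 0.726 and SMAD7 to 16.7 ± 1.81 TPM. With the union of all exons they came to 15.6 ± 1.63, 11.0 ± 1.77, 12.0 ± 1.24 and 17.9 ± 2.70 TPM. SMAD2 thus changed from the lowest of the 4 by the deposited values to the highest with the next longest transcript, and lay above both SMAD3 and SMAD4 with the union of exons. Which SMAD2 transcripts were present in the cells was not measured by a gene-level table.

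**Figure D2:**
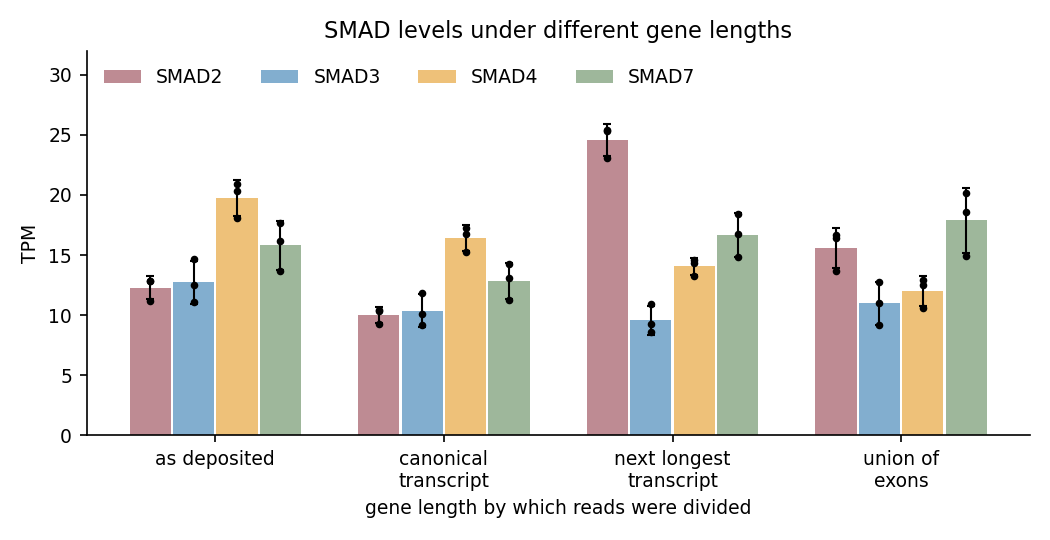
Bars give the mean TPM of SMAD2, SMAD3, SMAD4 and SMAD7 over 3 replicates, points the replicates and error bars the SD, for the deposited values and for 3 other gene lengths. SMAD2 moves from 12.3 TPM as deposited to 24.6 TPM with the next longest transcript, while SMAD3 moves from 12.7 to 9.59 TPM.

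SMAD4 exceeded SMAD3 1.56-fold (log2 difference of SMAD3 from SMAD4 of -0.64 ± 0.15), although by -0.14 only with the union of exons, where replicate 2 read 12.8 TPM for SMAD3 and 12.5 TPM for SMAD4. SMAD7 exceeded SMAD3 1.24-fold (0.31 ± 0.050), in 3 of 3 replicates, and did so on average under every gene length tried. SMAD4 lay above SMAD7 by the deposited values and with canonical lengths, but below it in every replicate with the next longest transcript and with the union of exons. By the deposited values SMAD4 exceeded SMAD2 1.61-fold (log2 difference of SMAD2 from SMAD4 of -0.69 ± 0.018), which turned to 0.81 with the next longest transcript and to 0.37 with the union of exons. The pairs of SMAD3 and SMAD4, SMAD7 and SMAD3, and SMAD2 and SMAD4 each had a p of 0.25 by the deposited values, the smallest the exact sign-flip permutation test can give. SMAD6, the other inhibitory SMAD, which acts mainly on the BMP branch, had 7, 7 and 6 reads and a mean of 0.254 TPM, so that SMAD7 stood 61.9-fold above it (log2 difference of 5.95 ± 0.21, 3 of 3 replicates, p of 0.25 in the exact sign-flip permutation test).

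Ordered by mean TPM, the 10 genes ran TGFBR2, TGFB1, TGFBR1, SMAD4, SMAD7, SMAD3, SMAD2, TGFBR3, TGFB3 and TGFB2. Of the 9 pairs of neighbours in this order, 8 differed in the same direction in every replicate by a mean log2 difference larger than its SD, and the pair of SMAD3 and SMAD2 did not. The order was set from the same replicates, so this describes their spread and is no separate support for the order. The order within the SMADs rests on the gene lengths behind the deposited TPM. With the next longest transcript or the union of exons 7 of the 9 pairs of neighbours kept their direction. Under both, SMAD7 passed SMAD4, and SMAD2 passed SMAD3 and SMAD4. With the next longest transcript SMAD2, at 24.6 TPM, also passed SMAD7, at 16.7 TPM, and TGFBR1, at 23.4 TPM. Without replicate 2, 8 of the 9 pairs kept their direction. The steps below are those of the deposited values. The widest steps between neighbours were those from TGFBR3 to TGFB3 (log2 difference of 2.25 ± 0.25) and from TGFB3 to TGFB2 (1.48 ± 0.70). The steps from TGFBR2 to TGFB1 (1.09 ± 0.14) and from TGFB1 to TGFBR1 (1.17 ± 0.28) followed. Those from TGFBR1 to SMAD4 (0.74 ± 0.10), from SMAD4 to SMAD7 (0.33 ± 0.11, turned under the lengths just named) and from SMAD2 to TGFBR3 (0.40 ± 0.19) were smaller.

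By deposited TPM and against genes of like level, TGFB1 had the widest spread of the 10 genes between replicates and TGFBR1 the narrowest. The 3 TGFB1 values had a coefficient of variation of 18.9%, against 3.07% from the counting of reads alone, and the interval of replicate 3, from 54.4 to 63.0 TPM, lay below those of replicates 1 (77.3 to 86.6) and 2 (79.6 to 88.9). Its SD of log2(TPM + 1) was 0.29, larger than that of 96.7% of the 1941 genes within 1.5-fold of its level. For TGFBR3 that share was 82.6% and for TGFBR1 14.2%. With the replicates scaled by the median ratio over genes that averaged 10 TPM or more, TGFBR1 read 33.2, 29.7 and 35.9. SMAD2 then read 12.1, 12.2 and 12.5 and SMAD4 19.7, 19.3 and 20.2, both narrower than TGFBR1 for their level. The shares were not recomputed on that scale. By deposited TPM the median SD over the 10 genes was 0.18 (range 0.088 to 0.30), beside 0.19 over all 15640 expressed genes. Without replicate 3 it was 0.10, beside 0.11.

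Replicate 3 was lower than the mean of replicates 1 and 2 in 10 of the 10 genes, and it held the lowest of the 3 values in 9, TGFBR1 being the exception. The log2 differences were -0.91 for TGFB2, -0.50 for TGFB1, -0.49 for TGFBR3, -0.48 for TGFB3, -0.31 for SMAD7, -0.29 for SMAD3 and TGFBR2, -0.20 for SMAD2, -0.19 for SMAD4 and -0.051 for TGFBR1. Their median was -0.30, beside -0.24 over the 8809 genes that averaged 10 TPM or more. With that median, most of the 8809 genes were lower in replicate 3 as well, and their exact share was not counted. The share of them with the lowest value in replicate 3 was not counted either, before or after the scaling below. The counts given here therefore show no trait particular to the 10 genes. Of the 10 genes, 7 lay below that background. Among these 7, TGFB2, TGFB3 and TGFBR3 averaged less than 10 TPM themselves. TGFB2 and TGFB3 had only 12 and 24 reads in replicate 3. The protein-coding share of TPM moved with this shift, as given above. With TPM rescaled to protein-coding genes the median of the 10 genes was -0.11, beside a background of -0.053. Whether that share caused the shift was not tested. The replicates were then scaled by the median ratio over the genes that averaged 10 TPM or more. On that scale, where the background was 0.0020, 7 of the 10 were still lower in replicate 3 than the mean of replicates 1 and 2. The others, 3 genes, were higher (TGFBR1 by 0.19, SMAD4 by 0.050 and SMAD2 by 0.040). Replicate 3 held the lowest of the 3 values in only 4 of the 10, beside 9 before scaling. TGFB1 then read 76.9, 79.9 and 65.5, a log2 difference of -0.26. Furthest below the mean of replicates 1 and 2 were TGFB2 (-0.67), TGFB1, TGFBR3 (-0.25) and TGFB3 (-0.23), after the scaling. TGFB3 in replicate 3, at 1.75, was nevertheless above replicate 1, at 1.61. The other 6 genes lay between -0.066 and 0.19.

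**Figure D3:**
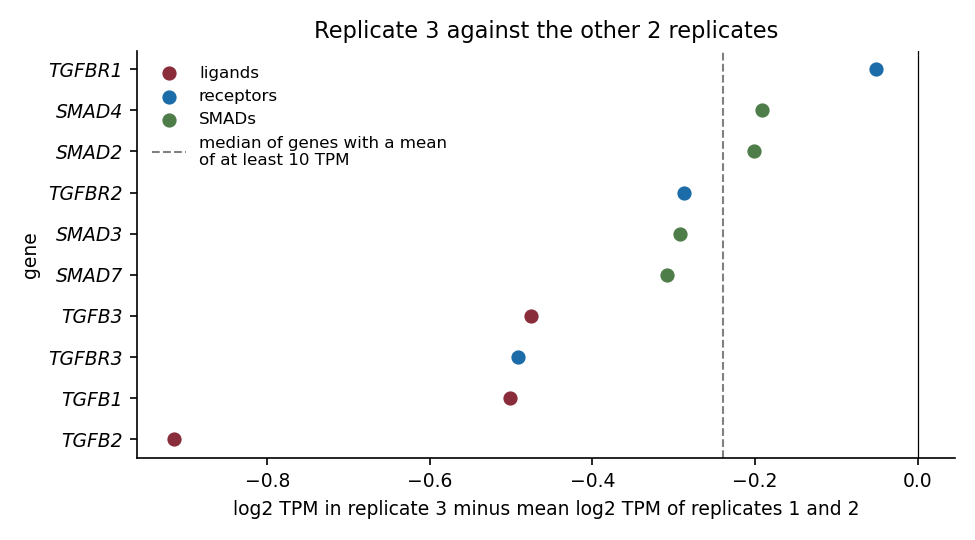
For each gene, log2 TPM in replicate 3 minus the mean log2 TPM of replicates 1 and 2, coloured by role, with a dashed line at the median of the 8809 genes that averaged 10 TPM or more. All 10 points lie below 0, and 7 lie below the dashed line at -0.24.

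The rest of the family and pathway was read from 8 lists of 84 genes in all, of which 60 had a mean of at least 1 TPM, beside 56.7% of all protein-coding genes. In every replicate 57 reached it, and 10 had 0 reads in all replicates, a count that allows up to 3 reads in each library. Of 10 other type I and type II receptors, which bind activins, BMPs and related ligands, 7 reached the cutoff. The highest were BMPR2 at 23.7 ± 2.15 TPM and BMPR1A at 21.2 ± 1.86 TPM, the type II and a type I receptor for BMPs, both below TGFBR1 and far below TGFBR2. Of 7 co-receptors and decoy receptors 6 did, and the highest, CD109, a surface protein that binds TGF-beta and dampens its receptors, was at 121 ± 9.86 TPM, above TGFBR1 and TGFBR3. ENG, the endoglin co-receptor best known from endothelium, followed at 59.6 ± 12.2 TPM.

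Of the 4 remaining SMADs, those of the BMP branch and SMAD6, 3 reached the cutoff. SMAD5 had the highest level of any SMAD in these cells by deposited TPM, at 82.3, 70.3 and 67.2 TPM, above SMAD4 in every replicate. SMAD1, the other broadly used BMP-branch SMAD, was at 34.4, 34.3 and 26.6 TPM, and SMAD9, the third of that branch, at 3.69, 4.46 and 3.90 TPM.

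Of 11 genes for the storage and release of latent ligand, 9 were at or above 1 TPM. The median of all 11 was 51.5 TPM, beside 24.9 TPM over protein-coding genes that reached the cutoff. The lists were picked by name and no list was tested against other genes. THBS1, thrombospondin 1, which can activate latent TGF-beta, was at 732 ± 78.8 TPM, and LTBP1, which tethers the latent complex to the matrix, at 126 ± 16.8 TPM. Of 15 SMAD cofactors and negative regulators 13 reached the cutoff, the highest being STRAP (373 ± 45.3 TPM), which holds SMAD7 at the receptor, and FKBP1A (170 ± 16.9 TPM), which binds the type I receptor and keeps it from leaky activity. SMAD7 itself, at 15.8 TPM, was far below both.

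The other ligands of the family were low, as TGFB2 and TGFB3 were. Of 12, 5 had a mean of at least 1 TPM, 1 of them not in every replicate, and the median was 0.557 TPM. The highest were GDF15 at 9.22 ± 1.09 TPM and GDF11 at 5.51 ± 0.616 TPM, so TGFB1 stood above every other ligand gene on these lists. Of 10 ligand antagonists 4 reached the cutoff and 3 had 0 reads, and the highest were FSTL3 (179 ± 27.4 TPM) and FST (10.9 ± 1.38 TPM), follistatins that bind activins rather than TGF-beta.

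Of 17 genes known to respond to TGF-beta, 15 had a mean of at least 1 TPM, 14 in every replicate. TGFBI, a matrix protein named for its induction by TGF-beta, was at 1907, 1884 and 1627 TPM, and VIM, the mesenchymal intermediate filament vimentin, had a mean of 1533 ± 173 TPM. The feedback inhibitors PMEPA1 and SKIL were at 171, 170 and 152 TPM and at 24.1, 21.1 and 20.5 TPM. These levels come from 1 condition without added or blocked ligand, so they do not measure a response to TGF-beta.

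**Figure D4:**
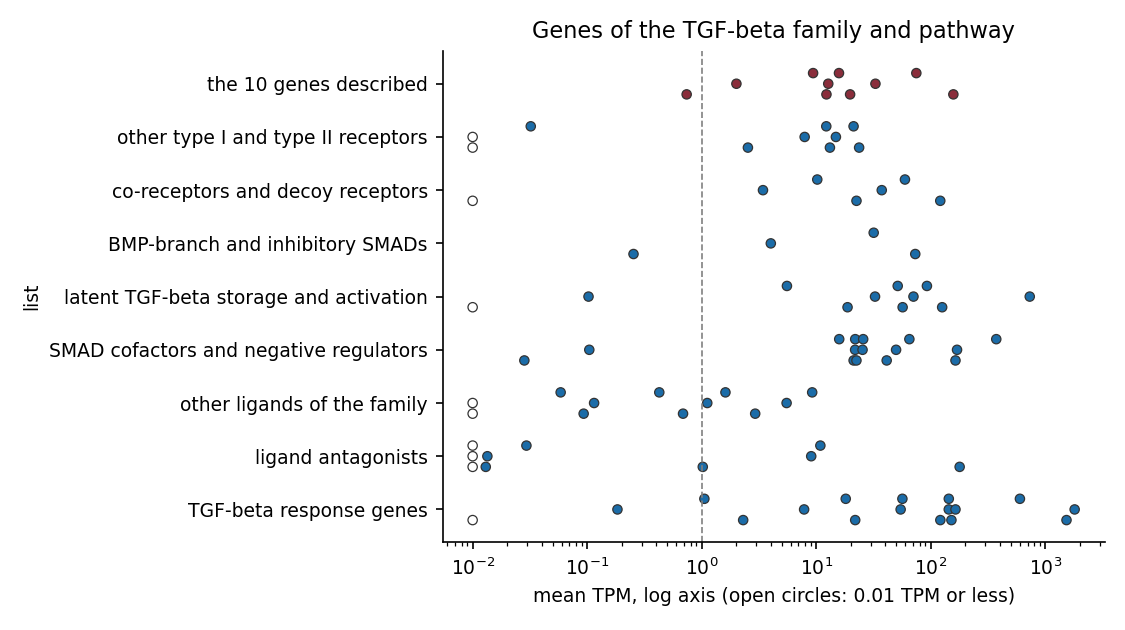
Mean TPM over 3 replicates on a log axis for the 10 genes described and for each gene of 8 lists, 1 point per gene, with open circles at the left edge for means of 0.01 TPM or less and a dashed line at 1 TPM. The other ligands and the antagonists have most of their genes below the line, at 7 of 12 and 6 of 10, and the SMAD cofactors have 2 of 15 below it.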

How the data were processed

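RNA-seq was measured in 3 EV replicates of MCF10A cells. Libraries depleted of ribosomal RNA were prepared from 300 ng of RNA, mapped to hg38 and counted with Seq2science by the authors. The submitters' processing notes name fastp, STAR and MultiQC. Neither the annotation release nor the strand setting of the counting is given in the sources used here. The authors deposited 1 table of TPM for 62754 genes, which sums to 1000000 in each replicate. Columns were matched to samples by library name.

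GENCODE release 44 on hg38 supplied positions and lengths for 62700 of the identifiers. Reads were recovered as TPM times the length of the longest transcript, less 1 base per exon, divided by the smallest step of each replicate, and were whole within 0.01. Intervals are exact Poisson intervals at 95%. The same-strand and opposite-strand overlaps and the 50-base windows were computed on canonical transcripts. Since there is 1 condition, no group was compared. The 11 pairs of genes were compared by log2 ratios within a library with an exact two-sided sign-flip permutation test, and neighbours were said to differ where the mean difference exceeded its SD and kept its sign. Spread between replicates was taken on the log2(TPM + 1) scale, as an SD.

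The 10 genes and the 12 lists, 8 of the pathway and 4 of cell markers, were chosen with earlier results of these data known. Named are the 10 genes, from each pathway list every gene on a list of up to 4 genes and otherwise the 2 highest, and TGFBI, SKIL, PMEPA1 and SMAD6. Some genes that the rule or the lists hold are not reported here. Alternatives covered scaling, gene length, cutoff, pseudocount, a filter on low values, the median and leaving out each replicate. The next longest transcript, the union of exons and canonical lengths without shared bases were added after seeing the data. On simulated data of 62700 genes, the reads of 100% of genes were recovered, and 200 genes changed in 1 replicate came back with a median log2 change of 2.00. The tools were scipy 1.17.1, pandas 2.3.3, numpy 2.4.6 and matplotlib 3.10.9 under Python 3.11.15.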

Additional observations from a re-analysis of the deposited data

How the results depend on the processing

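The count of 9 genes at or above 1 TPM was the same under every alternative except a cutoff of 0.5 TPM, where it was 10, and the count of pathway genes ran from 56 at a cutoff of 2 TPM to 61 at 0.5 TPM. The direction of 9 of the 11 pairs held under every alternative tried. The log2 difference of SMAD2 from SMAD3 turned from -0.046 to 1.37 with the next longest transcript and to 0.51 with the union of exons, and ran from -0.089 to 0.028 with 1 replicate left out, above 0 without replicate 2. That of SMAD2 from SMAD4 turned from -0.69 to 0.81 and 0.37 with the same lengths. In the order of the 10 genes, 7 of 9 pairs of neighbours kept their direction under these 2 lengths and 8 without replicate 2, and all 9 did otherwise. This counts pairs and not ranks, and under these 2 lengths SMAD2 passed genes that were not its neighbours. The next longest transcript also raised the log2 difference of TGFB1 from TGFB2 from 6.73 to 7.67 and from TGFB3 from 5.25 to 6.39, and log2(TPM + 1) lowered them to 5.44 and 4.66. The cause is the construction of these alternatives, which divide the same reads by other lengths or add 1 to low values. Of the levels of single genes under the alternatives, 84 moved by less than 1 SD and 26 by more, all of the latter under another gene length or a rescaling. The median SD of the 10 genes fell from 0.18 to 0.12 with TPM rescaled to protein-coding genes, beside 0.14 over all expressed genes, and ran from 0.10 without replicate 3 to 0.21 without replicate 1. The median difference of replicate 3 went from -0.30 to -0.11 with that rescaling, against a background of -0.053, and to -0.059 with replicates scaled by the median ratio, against 0.0020. No paired analysis was possible because the design has a single condition. With 12 to 33 reads on TGFB2 and 24 to 51 on TGFB3, counting error limits what can be said of their levels, and 3 replicates allow no p below 0.25 for any pair.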
